A study of Mus musculus with 4 samples.

Results

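The epithelial sodium channel (ENaC) and the genes of its steroid control were followed by name through every cell cluster of a mouse kidney atlas. The 8 genes, of 19609 gene rows used, were the channel subunits Scnn1a, Scnn1b and Scnn1g, the mineralocorticoid receptor Nr3c2, the glucocorticoid receptor Nr3c1, the glucocorticoid-inactivating enzyme Hsd11b2, the kinase Sgk1 and the ubiquitin ligase Nedd4l. All 8 were in the table and were taken by name, with earlier results of these data known. The data were single-nucleus RNA sequencing of kidney cortex from 4 male mice of mixed strain, 1 mouse per condition, whose age is not given in the sources used here. The 2 control mice carried TRE-hKLF6, a human KLF6 transgene that needs an activator which these mice lacked. The 2 hKLF6 OE mice carried CAG-rtTA and TRE-hKLF6, so that doxycycline turns on human KLF6 under a promoter active in all cell types. Doxycycline was given in the diet for 1 week before the injury step. In each genotype 1 mouse had no treatment by its label and 1 mouse had received a single 2 mg/kg injection of aristolochic acid I (AAI), a plant toxin that damages proximal tubule DNA, 24 hours before collection. The 2 mice without AAI are called untreated below, which refers to AAI only and not to doxycycline. The paper names DMSO alone as the control injection, and the labels do not say whether these mice received it. The human transgene has no row of its own in the table.

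ENaC is the apical channel through which principal cells of the connecting tubule and collecting duct take up sodium, and its open pore is built from an alpha, a beta and a gamma subunit. Aldosterone acts on this segment through the mineralocorticoid receptor, which binds cortisol and corticosterone as well, and 11-beta-hydroxysteroid dehydrogenase type 2, encoded by Hsd11b2, inactivates those glucocorticoids in the same cells so that aldosterone can reach its receptor. Nedd4l marks ENaC with ubiquitin for removal from the membrane, and Sgk1, a kinase induced by aldosterone, phosphorylates Nedd4l and so lessens that removal.

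Each value, called a level here, is the authors' mean expression over the nuclei of 1 cluster and 1 mouse after scaling each nucleus to 10000. There were 23 clusters and hence 92 columns. Since a condition is 1 mouse, no test between conditions was made, and an SD over the 4 mice holds differences between mice and between conditions together. Values of the 4 mice are always given in the order control, control with AAI, hKLF6 OE, hKLF6 OE with AAI. The share of genes at 0, given because the depth of a column is unknown, was 29.8% to 33.9% in the connecting tubule (CNT), 36.5% to 41.1% in collecting duct principal cells (CD_PC) and 60.5% to 63.4% in the small LH-AL-3 cluster of the ascending limb. Cluster names were tested on markers other than the 8 genes. The sodium-calcium exchanger gene Slc8a1 was highest in CNT (323) and next in the distal convoluted tubule (DCT, 186), the thiazide-sensitive transporter gene Slc12a3 in DCT (167), the water channel gene Aqp2 in CD_PC (6.86, against 1.38 in CNT), and the anion exchanger gene Slc4a1 in type A intercalated cells (IC-A, 1.63). The cluster named DCT_CNT also held a summed level of 66.8 to 82.4 over 7 proximal tubule markers, so proximal tubule transcripts were present in it.

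The channel genes lie at 2 places in the genome. In GENCODE annotation of GRCm38, Scnn1a spans 24.3 kb at chr6:125320659-125344943 on the plus strand. Scnn1g (chr7:121734479-121768475, 34.0 kb) and Scnn1b (chr7:121865038-121918514, 53.5 kb) follow each other on the plus strand with 96.6 kb between them. Nr3c2 spans 346 kb at chr8:76899442-77245012 and Hsd11b2 only 5.23 kb at chr8:105518755-105523988. The promoter windows of the neighbours Scnn1g and Scnn1b are shown because these genes had nearly the same cluster pattern, and that of Nr3c2 because its product acts on the pathway. Each runs from 250 bases before to 50 bases after the RefSeq start (GRCm38.p6, plus strand, 5′ to 3′), and capitals mark the GC box GGGCGG on either strand. The windows are chr7:121734229-121734528 for Scnn1g, chr7:121864788-121865087 for Scnn1b and chr8:76902080-76902379 for Nr3c2. The Nr3c2 window lies wholly inside the GENCODE span of the gene, so it does not cover the GENCODE start.
Scnn1g: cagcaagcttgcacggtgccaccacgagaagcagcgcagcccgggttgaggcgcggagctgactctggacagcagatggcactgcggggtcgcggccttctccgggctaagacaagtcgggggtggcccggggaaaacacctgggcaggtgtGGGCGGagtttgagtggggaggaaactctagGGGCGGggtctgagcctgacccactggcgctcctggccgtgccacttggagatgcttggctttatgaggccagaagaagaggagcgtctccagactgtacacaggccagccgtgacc
Scnn1b: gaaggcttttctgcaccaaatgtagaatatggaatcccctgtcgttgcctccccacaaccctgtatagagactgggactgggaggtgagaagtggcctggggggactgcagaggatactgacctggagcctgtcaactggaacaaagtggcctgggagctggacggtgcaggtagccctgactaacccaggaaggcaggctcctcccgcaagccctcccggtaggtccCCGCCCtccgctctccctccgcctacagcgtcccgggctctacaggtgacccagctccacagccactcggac
Nr3c2: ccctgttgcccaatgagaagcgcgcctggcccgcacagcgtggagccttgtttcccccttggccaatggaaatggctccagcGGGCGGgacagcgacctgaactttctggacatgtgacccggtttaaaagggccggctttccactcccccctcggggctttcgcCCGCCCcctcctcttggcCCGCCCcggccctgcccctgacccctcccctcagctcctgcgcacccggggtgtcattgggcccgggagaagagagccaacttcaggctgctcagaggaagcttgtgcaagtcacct
Scnn1g held 2 GC boxes on the printed strand, Scnn1b 1 on the other strand, and Nr3c2 1 on the printed and 2 on the other strand. Of all 32817 promoter windows of the same length, 35.6% held a GC box on either strand. The hexamer AGAACA, the core of the element that both steroid receptors bind, was in none of these 3 windows on either strand, and 19% of all promoter windows held it. The full palindrome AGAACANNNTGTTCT was in none of them and in 3 of the 32817 windows. GC content was 64.7% for Scnn1g, 61.7% for Scnn1b and 65.7% for Nr3c2.

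The 3 subunit genes did not share a cluster pattern. Scnn1b and Scnn1g lay mostly in CNT and CD_PC, which held 67.5% and 69.3% of their summed cluster levels, while these clusters held 21.7% of that of Scnn1a, which was present along the distal nephron. Scnn1b, the beta subunit, was highest in CD_PC at 8.66 ± 0.871 (SD, n = 4 mice), with 9.64, 8.68, 7.52 and 8.82 in the 4 mice. In CNT it was 8.65, 6.34, 9.37 and 7.74, a range that overlapped CD_PC, so these clusters could not be ordered. Its next cluster was IC-A at 2.65 ± 0.341, below every CNT and CD_PC value.

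Scnn1g, the gamma subunit, was highest in CNT at 5.38 ± 1.19, with 6.63, 3.83, 5.89 and 5.17 in the 4 mice. In CD_PC it was 4.84, 4.31, 3.85 and 3.96, again within the CNT range. The drop to the next cluster was steep, since DCT_CNT had 0.916 and CNT stood 5.87 times above it. Outside the distal nephron both genes were close to 0. Their mean over the 5 normal proximal tubule clusters was 0.0583 for Scnn1b and 0.0617 for Scnn1g, 0.673% and 1.15% of the highest cluster. Scnn1b was at 0 in 11 columns and Scnn1g in 13.

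Scnn1a, the alpha subunit that the pore needs, was at 2.20, 2.07, 1.72 and 2.19 in CNT, its highest cluster. The ranges of 5 further clusters overlapped this one, namely DCT (mean 1.80), LH-AL-2 (1.75) and IC-B-1 (1.75), CD_PC (1.75) and IC-A (1.55), and IC-B-2 (1.53) and LH-AL-1, the main ascending limb cluster (1.22), followed. In CD_PC its 4 values were 2.37, 1.78, 1.02 and 1.81, the widest relative spread of a subunit in CNT or CD_PC. The S3 proximal tubule cluster PT-S3-2 had 0.536, with every mouse below every DCT_CNT value, and the lowest cluster was Podocytes at 0.0547.

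**Figure D1:**
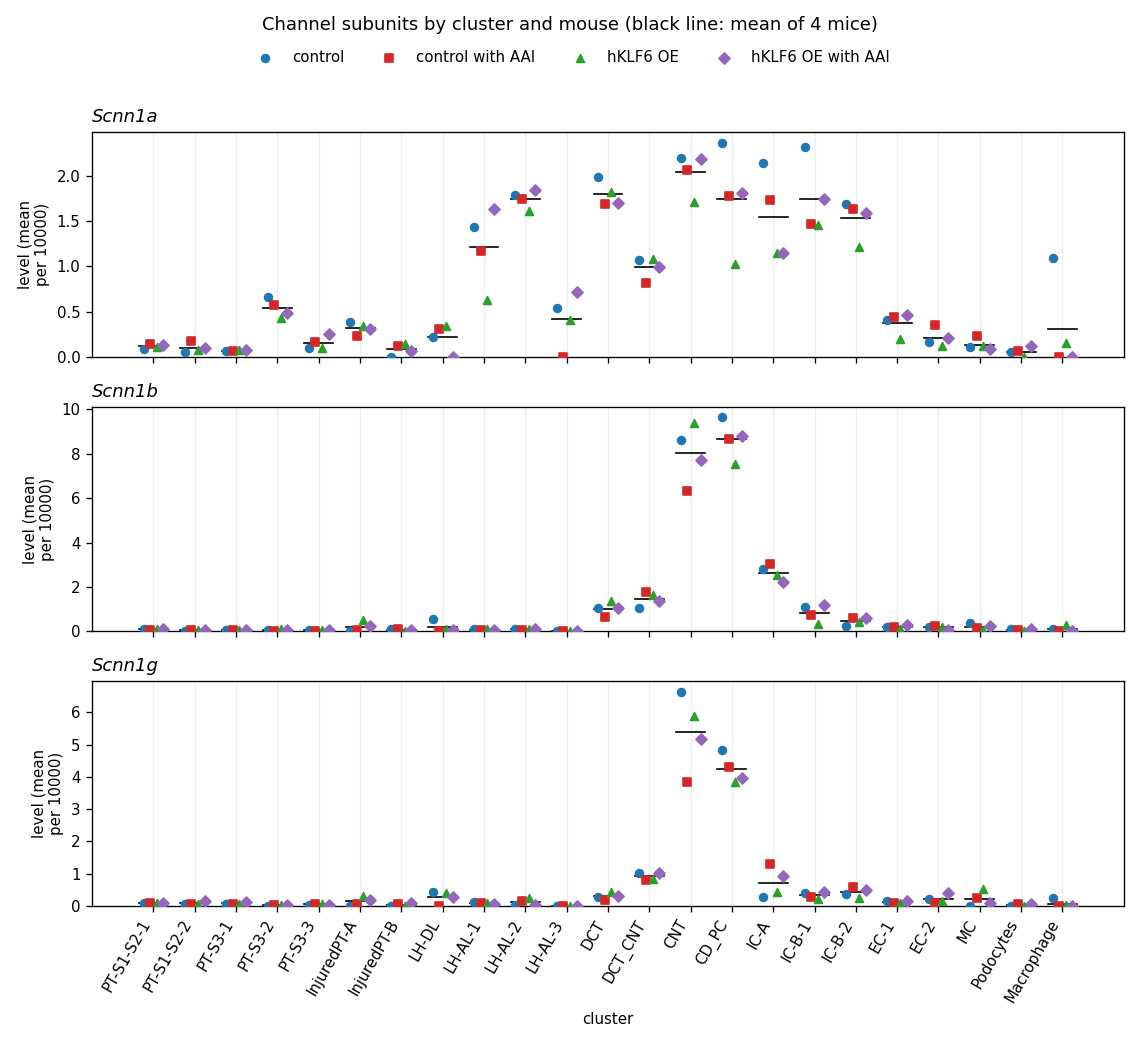
Level of Scnn1a, Scnn1b and Scnn1g (mean per 10000, linear axis from 0, each panel its own scale) in 23 clusters, 1 point per mouse and a black line at the mean of 4 mice. Scnn1b and Scnn1g are highest in CNT and CD_PC, with IC-A next for Scnn1b at 2.65, while Scnn1a has means between 1.22 and 2.04 in CNT, CD_PC, DCT, LH-AL-1, LH-AL-2 and the intercalated clusters.

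In IC-A, a cell type known for acid secretion, the beta and gamma subunit genes were at part of their CNT levels. Scnn1b there had 2.82, 3.01, 2.51 and 2.24, which was 33.0% of its CNT level (26.8% to 47.5% within single mice). Scnn1g in IC-A was 13.4% of CNT, with 0.270, 1.29, 0.414 and 0.910, and was highest in the control mouse with AAI. CNT and principal cell transcripts were present in the same cluster. The sum of 4 CNT markers in IC-A, mostly Slc8a1 (mean 31.5), was 30.8, 61.5, 14.1 and 36.4 with none at 0. Slc8a1 was at 9.74%, Calb1 at 15.6% and Trpv5 at 9.91% of their CNT levels, with S100g at 1.90 against 4.07 in CNT. The 5 principal cell markers summed to 0.921, 3.97, 1.68 and 0.693 with 1 at 0 in each mouse, and Aqp2 stood at 9.09% and Fxyd4 at 1.66% of CD_PC. The part of such transcripts in the IC-A level of Scnn1b was not tested.

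Scnn1b shares 39.2 kb of its span with Cog7, a Golgi complex gene on the other strand. Cog7 was highest in CNT (1.15) and CD_PC (1.09), ahead of LH-DL (0.663), and whether reads were counted by strand is not given in the sources used here. Without strand, reads of both genes in the shared stretch cannot be told apart. Neither Scnn1a nor Scnn1g nor Hsd11b2 overlaps an annotated gene.

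Because nuclear reads fall in introns as well as exons, genes were compared with each other as level per 10 kb of span. On that scale Hsd11b2 was first in CD_PC at 11.5 per 10 kb, then Scnn1b at 1.62, Scnn1g at 1.25, Scnn1a at 0.719, Nr3c2 at 0.621 and Nedd4l at 0.571. Nr3c1 (0.0633) and Sgk1 (0.0562) were last. This order depends on the span, which is 5.23 kb for Hsd11b2 and 346 kb for Nr3c2. Undivided, Nr3c2 (21.5) and Nedd4l (18.9) were the highest of the 8 in CD_PC. Whether reads scale with span was not tested. In CNT Scnn1g (1.58 per 10 kb) and Scnn1b (1.5) were nearly equal and Scnn1a was at 0.841, so the alpha subunit gene was the lowest of the 3 in both clusters.

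Across the 23 cluster means on the log2(level + 1) scale, Scnn1b and Scnn1g had a Pearson r of 0.966, with 0.921 to 0.982 in single mice. Hsd11b2 followed both, with r of 0.919 to Scnn1g and 0.896 to Scnn1b. Scnn1a was closer to Nr3c2 (0.873) than to Scnn1b (0.678). These are descriptions over clusters that share mice, libraries and depth, and a few distal clusters set most of their size. Over all 92 columns and 5069 genes with a cluster mean of at least 1, the gene most like Scnn1b was Scnn1g (r = 0.946), followed by Atp2b2 (0.910) and Gm15810 (0.902). The genes most like Scnn1g, after Scnn1b, were Atp2b2 (0.931) and Egfem1 (0.929). Those most like Scnn1a were Sgpp2 (0.917), the potassium channel gene Kcnq1 (0.893) and Cabcoco1 (0.891).

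The mineralocorticoid and glucocorticoid receptor genes had opposite orders along much of the tubule, but PT-S3-2 was low for both (Nr3c2 0.867, Nr3c1 1.18). Nr3c2 was highest in CNT at 26.4 ± 4.39 (24, 33.0, 24.3 and 24.2), then CD_PC at 21.5 (22.1, 24.7, 16.3 and 22.8) and IC-A at 17.5 (16.6, 24.5, 12.1 and 16.7). The ranges of these 3 clusters overlapped, so their order is not fixed. DCT had 13.1, LH-AL-1 7.30, and the proximal tubule least, from 2.06 in PT-S1-S2-1 to 0.720 in PT-S3-3. Nr3c2 was above 0 in all 92 columns, as was Nr3c1.

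Nr3c1 was lowest where Nr3c2 was highest. In CNT it was at 0.320, 0.442, 0.364 and 0.602, a mean of 0.432, and in CD_PC at 0.690 (0.775, 0.716, 0.526 and 0.743). DCT, at 0.890, was above CD_PC in range. The endothelial cluster EC-2 was highest at 2.92 (2.78, 4.00, 2.10 and 2.83), but 11 other clusters overlapped its range, among them mesangial cells (MC, 2.82), Macrophage (2.81) and 4 normal proximal tubule clusters between 1.96 and 2.57. Nr3c1 thus had no single top cluster, and its highest value moved to a different cluster in each mouse.

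The ratio of Nr3c2 to Nr3c1, which compares clusters and not the absolute amounts of the receptors, was 61.1 in CNT (75.0, 74.6, 66.9 and 40.2), 31.1 in CD_PC (28.5 to 34.5), 14.8 in DCT (12.6 to 16) and 13.6 in IC-A. It was 3.91 in LH-AL-1 and 1.44 in EC-2. All 5 normal proximal tubule clusters were below 1 on the mean, from 0.901 in PT-S1-S2-1 down to 0.367 in PT-S3-3. The r of the receptors over 23 cluster means was -0.683. The genes most like Nr3c2 were Kcnq1 (0.930), Sgpp2 (0.915) and Mecom (0.914), and those most like Nr3c1 included Sash1 (0.744) and Klf9 (0.645).

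**Figure D2:**
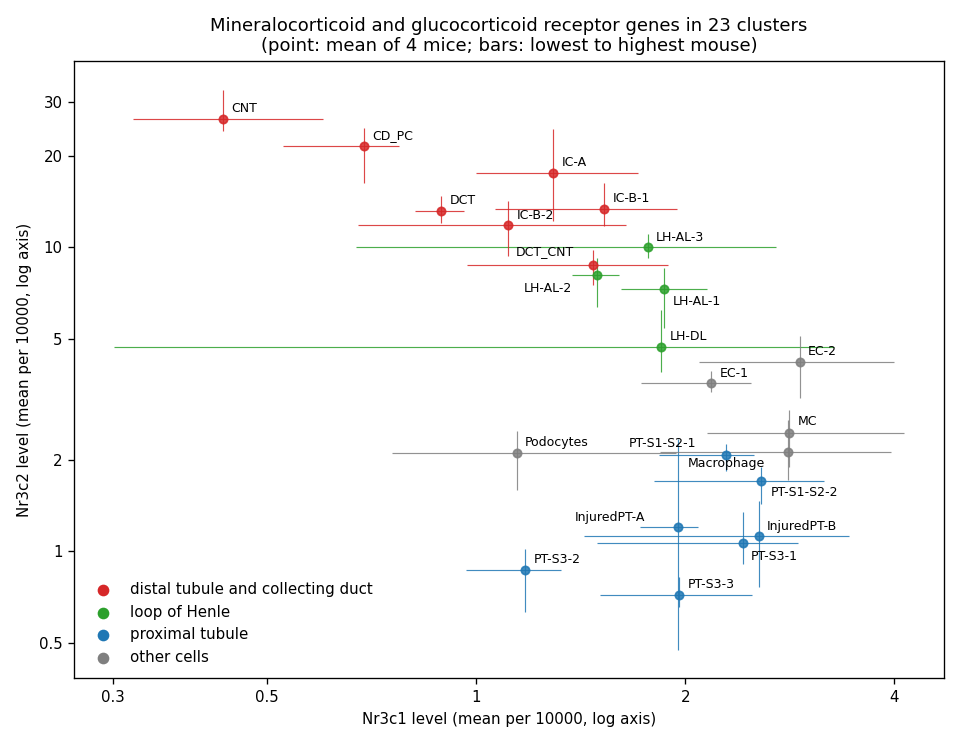
Level of Nr3c2 against Nr3c1 (mean per 10000, both axes logarithmic) in 23 clusters, with points at the mean of 4 mice and bars from the lowest to the highest mouse. CNT, at 26.4 and 0.432, and CD_PC, at 21.5 and 0.690, lie at the upper left. The proximal tubule clusters lie at the lower right, apart from PT-S3-2, which lies left of them at 0.867 and 1.18.

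Hsd11b2 separated principal cells from CNT, which the subunits did not. It was at 6.07, 5.09, 7.35 and 5.50 in CD_PC (mean 6.0 ± 0.984) and at 3.18, 3.60, 3.56 and 2.95 in CNT (3.32 ± 0.311), with no overlap between the ranges. IC-A was next at 0.833 and below every CNT value, so CD_PC was 7.20 times this cluster. CNT and CD_PC together held 51.9% of its summed level. In DCT, where Nr3c2 was at 13.1, Hsd11b2 was at 0.155, 0.301, 0.342 and 0.210, none of which reached the lowest CNT value. The normal proximal tubule mean was 0.24. The genes most like Hsd11b2 were Scnn1g (0.875), Aqp2 (0.875) and Crybg1 (0.866).

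Sgk1 was low everywhere and had its highest level in endothelium and not in the tubule. EC-2 had 1.55, 1.66, 2.03 and 0.854 (mean 1.52 ± 0.490), followed by MC at 0.721 and CD_PC at 0.662. The ranges of CD_PC, Macrophage and LH-AL-3 overlapped that of EC-2, and 5 clusters had a mean of at least 0.5. In CD_PC the values were 0.973, 0.780, 0.574 and 0.319, in CNT 0.460, 0.358, 0.235 and 0.391. DCT was lowest at 0.112. The genes most like Sgk1 were Efnb2 (0.819), Sema3f (0.758) and the shear-responsive factor gene Klf2 (0.757), each highest in EC-2. Its r to the other 7 genes over cluster means lay between -0.300 and 0.302.

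Nedd4l was broadly present and highest in intercalated cells. IC-B-2 had 31.0, 32.0, 27.8 and 30.8 (mean 30.4 ± 1.80), above every value of every other cluster. IC-A followed at 23.3 and IC-B-1 at 20.9, then CD_PC at 18.9 (19.1, 19.3, 19.7 and 17.3), which overlapped neither of its neighbours. CNT was at 10.0 (11, 9.78, 9.81 and 9.43), a range that overlapped that of PT-S3-2 (mean 12) through 1 mouse. The distal nephron was not uniformly high, since DCT had 4.37 and the normal proximal tubule 7.98. The genes most like it were Tacc2 (0.816), Zfp827 (0.797) and Wwc1 (0.767). Nedd4l is overlapped by A330084C13Rik on the other strand, which reached only 0.00674.

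**Figure D3:**
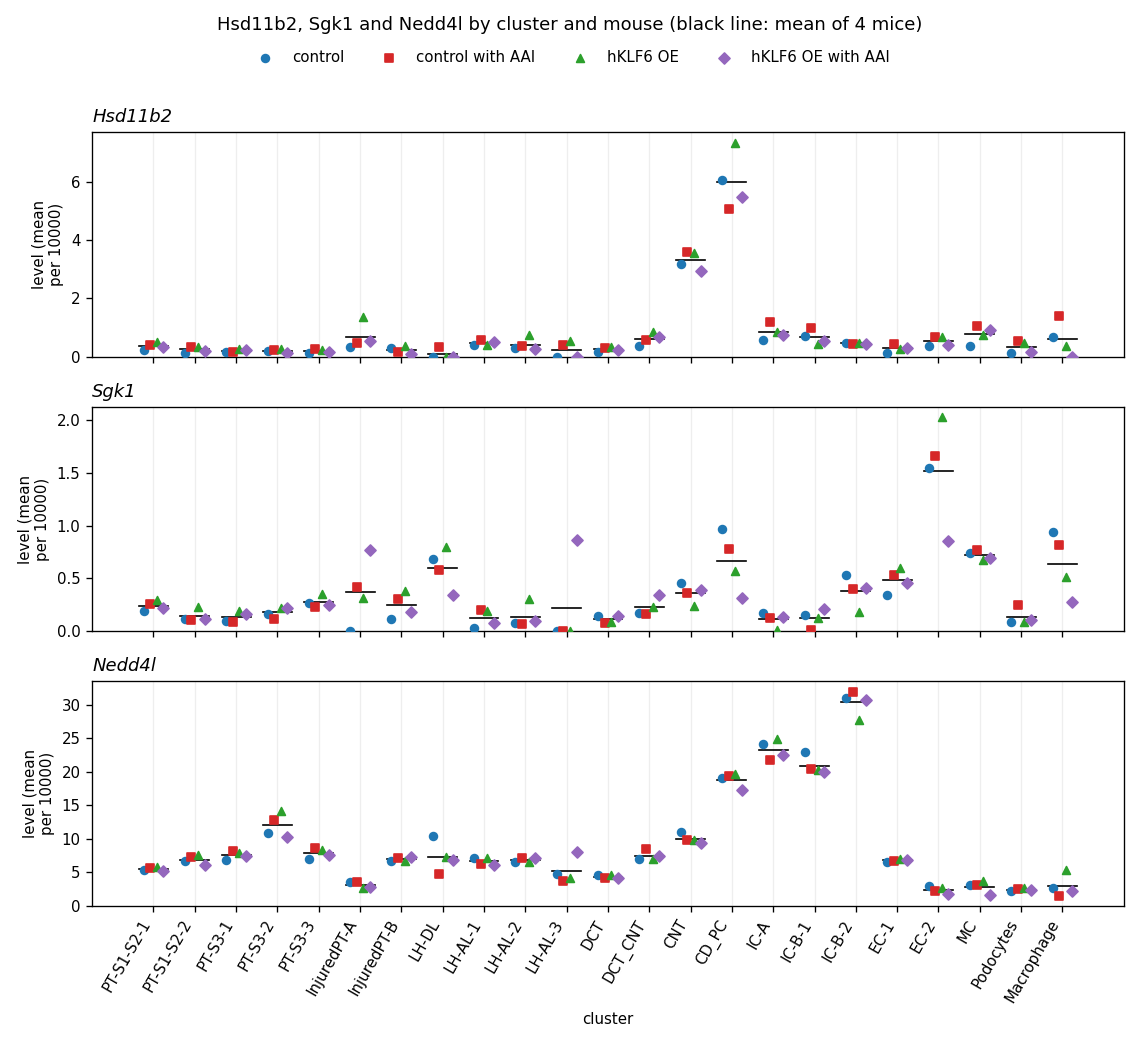
Level of Hsd11b2, Sgk1 and Nedd4l (mean per 10000, linear axis from 0, each panel its own scale) in 23 clusters, 1 point per mouse and a black line at the mean of 4 mice. Hsd11b2 peaks in CD_PC at 6.0, Sgk1 in EC-2 at 1.52 and Nedd4l in IC-B-2 at 30.4.

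Mice with and without AAI were compared next, in 5 distal regions and in the normal proximal tubule (mean of 5 clusters). Differences are on the log2(level + 1) scale, which understates changes of low genes. A gene was tested in a region if the larger of its 2 levels was at least 0.5 in each pair of mice, and was called if it differed by at least 0.2 in the same direction in the control pair and in the hKLF6 OE pair. The share of all genes called is given with the first count in each region and comparison, as a gauge of how often pairs of single mice pass by this rule. A comparison of AAI and a comparison of genotype use the same 4 mice and are not independent.

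In LH-AL-1, Nr3c2 was higher with AAI, from 6.75 to 8.54 in control and from 5.41 to 8.50 in hKLF6 OE, differences of 0.30 and 0.57. It was 1 of 5 genes that passed the minimum, where 6.83% of 4010 genes were called higher and 5.94% lower. Nr3c1 differed by 0.27 and 0.15 and was not called. Nedd4l, from 7.12 to 6.18 and from 7.10 to 6.07, differed by -0.18 and -0.196, just short of the threshold. The sum of 4 ascending limb markers was 265, 252, 232 and 241, and the sum of 7 proximal tubule markers in this cluster was 23.8, 14.2, 20.1 and 14.8, lower in both AAI mice. The part of this in the Nr3c2 difference was not tested. The rise was not particular to LH-AL-1. Outside the 6 regions, Nr3c2 in IC-A went from 16.6 to 24.5 in control and from 12.1 to 16.7 in hKLF6 OE. Over all clusters it was higher with AAI in 13 and lower in 10 in control, and higher in 14 and lower in 9 in hKLF6 OE.

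In CNT, Scnn1b was lower with AAI, from 8.65 to 6.34 in control and from 9.37 to 7.74 in hKLF6 OE, differences of -0.39 and -0.25. This was 1 of 6 genes, beside 9.43% of 3869 genes called higher and 6% lower. Scnn1g had the same direction, from 6.63 to 3.83 and from 5.89 to 5.17, but with -0.66 and -0.16 it was not called. Both subunit genes were lowest in the control mouse with AAI, and Nr3c2 was highest there (33.0), with differences of 0.44 and -0.01. The sum of 4 CNT markers in CNT, mostly Slc8a1 (mean 323), was 388, 306, 246 and 431, lower with AAI in control and higher in hKLF6 OE. The sum of 7 proximal tubule markers was 19.5, 14.2, 19.7 and 13. Neither sum was tested as a source of the Scnn1b difference. In CD_PC, Scnn1b differed with AAI by -0.14 in control and by 0.20 in hKLF6 OE, and in DCT_CNT by 0.44 and -0.17. Neither region thus had a fall in both genotypes. Over all clusters Scnn1b was lower with AAI in 14 and higher in 8 in control, and lower in 13 and higher in 9 in hKLF6 OE.

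In CD_PC, Hsd11b2 was lower with AAI, from 6.07 to 5.09 and from 7.35 to 5.50, differences of -0.22 and -0.36. It was 1 of 8 genes called, beside 467 of 4088 genes (11%) called higher and 8.54% lower, so the count was near the background. Scnn1a moved in opposite directions, from 2.37 to 1.78 in control and from 1.02 to 1.81 in hKLF6 OE. Sgk1 was lower in both AAI mice, with -0.15 and -0.26, and was not called. The summed level of 5 principal cell markers was 24.1, 37.8, 31.8 and 32.5, and its largest part was Mgat4c, with a mean of 18.4. The sum was higher with AAI in both genotypes, but its members did not all move this way. Aqp3, another of the 5, was lower with AAI in 23 of 23 clusters in hKLF6 OE, CD_PC among them, and in 7 of 23 in control.

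No gene was called with AAI in the other regions. In DCT none of 5 passed, beside 9.1% of 3747 genes called higher and 4.83% lower. Scnn1b came closest, from 1.04 to 0.620 and from 1.35 to 1.05, differences of -0.33 and -0.196. In DCT_CNT none of 7 passed, with 7.69% of 3992 genes called higher and 5.94% lower. In the normal proximal tubule none of 3 passed, with 7.66% of 3892 genes called higher and 5.83% lower. Over all genes the median AAI difference was 0.01 to 0.03 in the control pair and 0.05 to 0.09 in the hKLF6 OE pair. The median over the genes that passed was 0.17 and 0.15 in LH-AL-1, -0.16 and -0.06 in DCT, 0.20 and 0.07 in DCT_CNT, -0.11 and -0.11 in CNT, and -0.14 and 0.11 in CD_PC.

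Between genotypes, calls were fewer. In CD_PC, Sgk1 was lower in hKLF6 OE, at 0.574 against 0.973 without AAI and 0.319 against 0.780 with AAI, differences of -0.33 and -0.43. This was 1 of 8 genes, where 4.25% of 4000 genes were called higher and 9.4% lower. The other genes differed mostly without AAI. Scnn1a was at 1.02 against 2.37 (-0.74) without AAI and at 1.81 against 1.78 (0.02) with AAI, and Nr3c2 and Scnn1b were likewise lower in the untreated hKLF6 OE mouse, with differences of -0.42 and -0.32.

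In DCT, Scnn1b was higher in hKLF6 OE, at 1.35 against 1.04 and 1.05 against 0.620, differences of 0.20 and 0.34. It was 1 of 5 genes, beside 0.529% of 3593 genes called higher and 2.28% lower. Its difference without AAI was 0.205, just past the threshold. Scnn1g in DCT did not reach the minimum level, with 0.430 against 0.271 and 0.291 against 0.166. The sum of 4 DCT markers was 282, 262, 263 and 236, and that of 5 principal cell markers 0.555, 0.558, 0.848 and 0.291.

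Elsewhere no gene was called between genotypes. None of 4 passed in LH-AL-1, beside 1.25% of 3855 genes called higher and 2.28% lower. None of 7 passed in DCT_CNT, beside 2.2% of 3859 genes called higher and 4.51% lower. In CNT none of 6 passed, beside 1.62% of 3769 genes called higher and 3.95% lower. In the normal proximal tubule none of 3 passed, beside 0.65% of 3690 genes called higher and 1.92% lower. There Nr3c1 was at 1.52 against 2.39 without AAI (-0.43) and at 2.15 against 2.27 with AAI (-0.06). At a threshold of 0.5 none of the 8 genes was called in these 6 regions with AAI or between genotypes, and with a minimum level of 2 Scnn1b in DCT and Sgk1 in CD_PC did not pass. The median over all genes was -0.03 to -0.07 without AAI and -0.04 to 0.01 with AAI. The median over the genes that passed was -0.29 and -0.04 in CD_PC, -0.04 and 0.02 in DCT, and -0.06 and 0.01 in CNT.

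**Figure D4:**
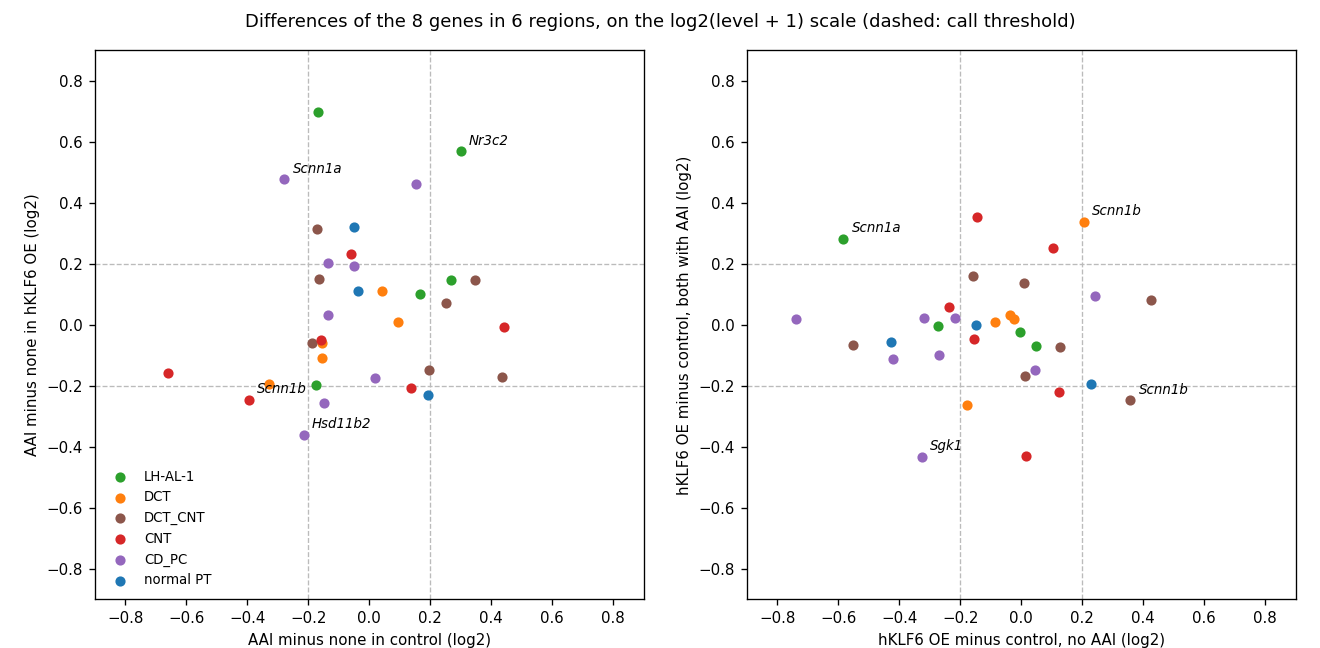
Differences of the 8 genes on the log2(level + 1) scale in 6 regions, AAI minus none at left (control pair on x, hKLF6 OE pair on y) and hKLF6 OE minus control at right (without AAI on x, with AAI on y), 1 point per gene and region that passed the minimum. Points past the dashed lines at 0.2 in the same direction are Nr3c2 in LH-AL-1, Scnn1b in CNT and Hsd11b2 in CD_PC at left, and Scnn1b in DCT and Sgk1 in CD_PC at right.

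In injured proximal tubule, 3 of the 8 genes, Nr3c2, Nr3c1 and Nedd4l, passed the minimum, and no channel subunit did. The InjuredPT-A and InjuredPT-B clusters of each AAI mouse were set against the normal proximal tubule of the same mouse, whose value is the latter of each pair. Nedd4l in InjuredPT-A was at 3.51 against 8.51 in control with AAI and at 2.80 against 7.31 in hKLF6 OE with AAI, differences of -1.08 and -1.13. Nr3c2 was also lower there, at 0.472 against 1.31 and 0.843 against 1.31, with -0.65 and -0.33, and was not called when the PT-S3 clusters alone were the reference. These were 2 of 3 genes that passed, in a cluster where 43.3% of 5008 genes were called higher and 27% lower, and where the median of all genes was 0.19 and 0.15. Nr3c1 differed by -0.11 and -0.09.

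The remaining genes did not reach the minimum level in both AAI mice in InjuredPT-A. Sgk1 was at 0.424 against 0.16 and 0.770 against 0.193, and Hsd11b2 at 0.473 against 0.280 and 0.539 against 0.203. Scnn1b was at 0.0760 against 0.0387 and 0.221 against 0.0668, so that none of the subunits came near its distal level. In InjuredPT-B the called gene was a different one. Nr3c1 was higher, at 3.44 against 2.27 and 3.31 against 2.15, differences of 0.44 and 0.45, as 1 of 3 genes beside 23.4% of 4148 genes called higher and 13.1% lower. Nedd4l there was at 7.21 against 8.51 and 7.29 against 7.31, differences of -0.21 and 0.00. In the AAI mice, the 5 injured proximal tubule markers summed to 5.03 and 2.78 in InjuredPT-A and to 4.27 and 8.01 in InjuredPT-B, and the 7 proximal tubule markers to 30.0 and 43.2 and to 45.3 and 31.9, against 114 and 105 in the normal proximal tubule.

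Hsd11b2 differed in the same direction in most clusters at the same time. It was higher with AAI in 20 of 23 clusters in control and lower in 18 of 23 in hKLF6 OE, and in hKLF6 OE against control it was higher in 20 of 23 without AAI and lower in 19 of 23 with AAI. Many genes did this, so the count is not particular to Hsd11b2. Among 4272 genes with a mean level of at least 0.5 over the columns, 13.3% were higher and 10% lower in at least 18 of 23 clusters with AAI in control, and 24.1% were higher and 14.7% lower in hKLF6 OE. Between genotypes the shares were 8.85% higher and 14.1% lower without AAI, and 6.02% higher and 8.94% lower with AAI.

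CD_PC, the highest cluster of Hsd11b2, went against the count with AAI in control, from 6.07 to 5.09. It also went against the count between genotypes with AAI, at 5.50 in hKLF6 OE against 5.09 in control. The clusters counted included those where Hsd11b2 is near 0. In the normal proximal tubule it was at 0.157, 0.280, 0.321 and 0.203, and in Podocytes at 0.139, 0.545, 0.482 and 0.168. Values of 8 other distal transcripts in the normal proximal tubule were read beside it. Klk1, the tissue kallikrein gene of the connecting tubule, was higher in 23 of 23 clusters in hKLF6 OE without AAI and lower in 22 of 23 with AAI in hKLF6 OE, and had 1.02, 1.26, 2.41 and 1.56 in the normal proximal tubule. Aqp3 there had 0.188, 0.214, 0.295 and 0.108, and Aqp2 0.168, 0.213, 0.309 and 0.108. Hsd11b2, Klk1, Aqp2, Aqp3 and Umod were highest in the untreated hKLF6 OE mouse, whereas Slc12a3, Slc8a1 and Calb1 were highest in hKLF6 OE with AAI and Fxyd4 in control with AAI. The part of a shift common to some distal transcripts in the Hsd11b2 counts was not tested. Scnn1b (0.0524, 0.0387, 0.0755 and 0.0668) was highest in the untreated hKLF6 OE mouse as well, and Scnn1g (0.0523, 0.0634, 0.0492 and 0.0819) was lowest there.

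**Figure D5:**
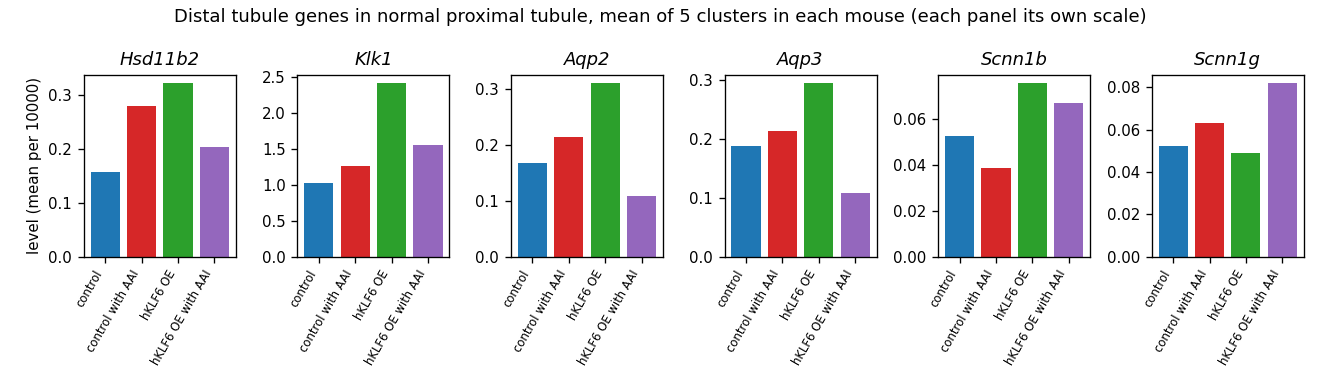
Level in the normal proximal tubule (mean per 10000, mean of 5 clusters, bars from 0, each panel its own scale) of Hsd11b2, Klk1, Aqp2, Aqp3, Scnn1b and Scnn1g, 1 bar per mouse. Hsd11b2, Klk1, Aqp2, Aqp3 and Scnn1b are highest in the untreated hKLF6 OE mouse, and Scnn1g is highest in hKLF6 OE with AAI. Not shown are Umod, highest in the untreated hKLF6 OE mouse, Slc12a3, Slc8a1 and Calb1, highest in hKLF6 OE with AAI, and Fxyd4, highest in control with AAI.

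The receptors reached 18 clusters in some comparisons only. Nr3c2 was lower in 21 of 23 clusters in hKLF6 OE without AAI, but in 17 of 23 with AAI. Without AAI, 14.1% of the 4272 genes were lower in at least 18 clusters. Nr3c1 was higher with AAI in 19 of 23 clusters in hKLF6 OE and in 15 of 23 in control. In hKLF6 OE, 24.1% of the 4272 genes were higher with AAI in at least 18 clusters. The 19 became 17 once differences were centred on the median of all genes. Scnn1a, Scnn1b, Scnn1g and Nedd4l reached 18 clusters in none of the 4 comparisons, and Sgk1 was below the mean level required.

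A further 54 genes of the pathway, in 5 lists, were read beside the 8. They were chosen with earlier results of these data known, and all 54 genes were in the table. The shares of all genes called with AAI were 6.83% higher and 5.94% lower in LH-AL-1, 9.1% and 4.83% in DCT, 7.69% and 5.94% in DCT_CNT, 9.43% and 6% in CNT, 11% and 8.54% in CD_PC, and 7.66% and 5.83% in the normal proximal tubule. A single call in a list of this size is read as no more than that. Of the 11 corticosteroid-responsive genes, in LH-AL-1, 3 of the 8 that passed were higher (Fkbp5, Per1 and Zbtb16), in DCT 1 of 8, in CD_PC 1 of 8 (Per1), and in CNT and DCT_CNT none of 8 and 7. Fkbp5, which encodes a co-chaperone that dampens receptor activity and is a classical glucocorticoid target, was at 2.64, 4.56, 2.03 and 4.54 in LH-AL-1 and at 2.86, 4.33, 2.85 and 4.31 in DCT. Both AAI mice were thus higher than both untreated mice in each of these clusters. This did not hold in every region. In the hKLF6 OE pair Fkbp5 fell with AAI from 4.54 to 2.96 in the normal proximal tubule and from 3.75 to 2.76 in DCT_CNT. In the control pair it fell from 2.33 to 1.91 in CD_PC. Fkbp5 was higher with AAI in 20 of 23 clusters in control and in 14 of 23 in hKLF6 OE. Per1 in CD_PC had 0.191, 0.593, 0.341 and 1.01. In the normal proximal tubule 1 of 7 was higher (Errfi1) and 1 lower (Dusp1). Between genotypes the list had a single call, beside 9.4% of all genes called lower, namely Zbtb16 in CD_PC at 0.512 against 1.69 and 0.993 against 1.75. The list's median AAI difference was 0.27 and 0.21 in LH-AL-1, against 0.01 and 0.05 over all genes, but -0.16 and -0.04 in DCT.

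The 15 Nedd4l and Sgk1 partners had few calls. With AAI, Rictor, a subunit of the kinase complex that activates Sgk1, was higher in CNT (from 0.826 to 1.75 and from 1.09 to 1.56) as 1 of 13, and in CD_PC 2 of 12 were higher (Ndfip2 and Wnk1) and 1 lower (Mtor). No partner was called with AAI in LH-AL-1, DCT, DCT_CNT or the normal proximal tubule. Between genotypes Wnk1, a kinase of the distal sodium chloride pathway, was lower in DCT (68.4 against 82.7 and 65.4 against 80.1), while in CD_PC Wnk1 and Ywhab were higher and Ndfip1 and Pdpk1 lower. Ndfip1, an adaptor of Nedd4l, was also lower in the normal proximal tubule, at 1.10 against 1.51 and 1.18 against 1.51. LH-AL-1, DCT_CNT and CNT had none.

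Of the 8 proteases and inhibitors that act on the channel, Spint2 was lower in LH-AL-1 and Prss8, the channel-activating protease prostasin, lower in DCT with AAI, as 1 of 6 each, and no other region had a call. Between genotypes Klk1 was the only call, higher in LH-AL-1 (1 of 6), DCT_CNT (1 of 5) and CD_PC (1 of 5), with 1.21, 1.43, 2.94 and 2.80 in CD_PC, beside its higher level in nearly all clusters given above. Among the 10 partner channels and sodium pump genes, Kcnj16, a basolateral potassium channel subunit, was higher with AAI in LH-AL-1, DCT and CNT, with 5.07, 7.83, 5.23 and 9.52 in CNT. The sodium pump subunit gene Fxyd2 was lower in LH-AL-1, DCT, CD_PC and the normal proximal tubule, with 5.29, 2.87, 7.82 and 2.86 in CD_PC, and it was lower with AAI in 23 of 23 clusters in each genotype. Atp1b1 in CD_PC was higher, Kcnj10 in CNT was lower, and DCT_CNT had no call. Between genotypes Kcnj10 was lower in CD_PC.

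The 10 genes for receptor chaperones, coactivators and glucocorticoid metabolism had Ncoa1, a receptor coactivator, higher with AAI in CNT (1 of 6) and CD_PC (1 of 5), Ncor1 lower in DCT_CNT (from 7.55 to 6.08 and from 6.67 to 5.33) as 1 of 5, and Hsd11b1, the enzyme that regenerates active glucocorticoid, lower in LH-AL-1 as 1 of 8. Hsd11b1 had 0.582, 0.222, 0.657 and 0.24 there, low beside its highest cluster, MC, at 5.05. It was also lower with AAI in DCT (from 0.434 to 0.169 and from 0.535 to 0.163) and CNT (from 0.334 to 0.108 and from 0.437 to 0.182). In these regions it did not reach the minimum level, so it could not be called. DCT and the normal proximal tubule had no call, and there was none between genotypes in any region. Over all 54 genes the median AAI difference was 0.04 and 0.08 in LH-AL-1, 0.00 and -0.05 in CNT and -0.02 and 0.11 in CD_PC.

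In InjuredPT-A, 16 of 39 pathway genes that passed were higher and 15 lower, and in InjuredPT-B 10 of 38 were higher and 7 lower, beside the large shares of all genes called there. The corticosteroid-responsive list had 2 higher and 3 lower of 7 in InjuredPT-A and 2 and 2 of 8 in InjuredPT-B. The Nedd4l and Sgk1 partners had 4 higher and 6 lower of 13, and 4 and 3 of 12. The proteases and inhibitors had 4 of 6 and 2 of 6 higher and none lower, with Spint2 at 2.57 against 1.08 and 1.79 against 0.936 in InjuredPT-A. Channels and pump genes had 3 and 3 of 6 in InjuredPT-A and 2 lower of 5 in InjuredPT-B, where Kcnma1 had 0.0851 against 1.04 and 0.161 against 1.13. The receptor chaperone list had 3 and 3 of 7, and 2 higher of 7, with the HSP90 co-chaperone gene Ptges3 at 2.93 against 0.684 and 2.51 against 0.641 in InjuredPT-A. The steroid target Errfi1 had the lowest difference of all lists in InjuredPT-A, at 6.35 against 24.7 and 7.04 against 22.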

How the data were processed

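Single-nucleus RNA was measured in kidney cortex of 4 mice, 1 per condition. The authors made the deposited signal values: Cell Ranger counted reads over exons and introns of mm10 (a pre-mRNA reference), nuclei with under 200 or over 6000 genes or over 10% mitochondrial reads were removed, genes in at least 3 nuclei were kept, and expression was averaged with Seurat per cluster and mouse on a linear scale, with each nucleus scaled to 10000. The averaging function and any doublet removal for these data are not given in the sources used here. Nuclei per column and depth are not in the table, so no interval could be given for a value.

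Of 19632 gene rows, 23 with date-like names were left out. Cluster numbers were named by the order of sheets in the marker table and checked on markers. Differences were taken on log2(level + 1), with a minimum of 0.5 and a threshold of 0.2. The calling rule was run on simulated data with large planted changes and little noise. That run checks the code only and does not bear on calls near the threshold between single mice. Groups come from the sample labels. The alternatives were a pseudocount of 0.1, no minimum, a minimum of 2, a threshold of 0.5, centring on the median, other proximal tubule references, single mice, the 2 mice without AAI, and leaving out columns with over 50% of genes at 0. The count of clusters in one direction was added after seeing the data. Named were the 8 genes, the largest rise and fall of the lists in each comparison, the other called genes of a list where 5 or fewer were called (chosen after their values were seen), and the 3 genes most like each of the 8 by Pearson r. Genes named in the cluster direction counts (Klk1, Fxyd2, Aqp2, Aqp3, Fkbp5) were also chosen after their values were seen. Some results that this rule would name are not reported here. The 8 genes and the lists were chosen with earlier results of these data known. Gene spans came from GENCODE M21 (GRCm38) and promoter sequences from RefSeq (GRCm38.p6), where Scnn1b, Scnn1g, Nr3c2 and Sgk1 had an entry. Python 3.11.15, numpy 2.4.6, pandas 2.3.3 and matplotlib 3.10.9 were used.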

Additional observations from a re-analysis of the deposited data

Results flagged for a closer look

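In 3 places a gene moved by at least 0.2 in opposite directions in the 2 pairs of mice, with 1 mouse per condition, so none of these differences between pairs was tested. Scnn1a in CD_PC differed with AAI by -0.28 in control and by 0.48 in hKLF6 OE, and the lowest of the 4 values was that of the untreated hKLF6 OE mouse. Scnn1a in LH-AL-1 was also lowest in that mouse, with hKLF6 OE minus control at -0.58 without AAI and 0.28 with AAI. Scnn1b in DCT_CNT differed between genotypes by 0.36 without AAI and by -0.25 with AAI, with levels of 1.06, 1.78, 1.63 and 1.34.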

How the results depend on the processing

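No called difference changed direction under the alternatives tried. With a pseudocount of 0.1 the genes called with AAI became 3 in LH-AL-1 (Nr3c1 and Hsd11b2 added), 1 in DCT (Scnn1b) and 2 in CD_PC (Sgk1 added), in place of 1, 0 and 1. Without a minimum level InjuredPT-A had 4 calls in place of 2, and with a minimum of 2 it had 1, while the calls between genotypes in DCT and CD_PC fell to 0. A threshold of 0.5 left 0 calls with AAI in LH-AL-1, CNT and CD_PC, 0 between genotypes in DCT and CD_PC, 1 in InjuredPT-A and 0 in InjuredPT-B. Centring on the median gave 1 call with AAI in DCT (Scnn1b) and 2 in CNT (Scnn1g added). With the PT-S3 clusters as reference InjuredPT-A had 1 call, as Nr3c2 was no longer called. The highest cluster was the same for 5 of the 8 genes in the untreated hKLF6 OE mouse alone and for 6 in each other mouse alone.

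Mice were not blocked by replicate number, because the labels give no shared replicate numbers and each condition is 1 mouse. A model with additive AAI and genotype terms, which leaves 1 residual degree of freedom, was not fitted. Leaving out a mouse leaves a comparison without its condition. The low levels of Sgk1, and of the subunits outside the distal nephron, rest on few reads, and their precision is unknown since depth per column is not in the table.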
